A study of Mus musculus with 13 samples.

Results

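Duplicated chromosomes are pulled apart in mitosis, and the 48 genes described here encode the kinases, checkpoint proteins, kinetochore subunits, motors and condensins that do this work, and some of their regulators. They were followed in epididymal white fat of male mice across 4 groups of Affymetrix gene arrays. A gene was measured where the annotation of the arrays gave at least 1 probe set this symbol and no other, and where it had several, the brightest on average was taken. By this rule 43 of the 48 genes were measured, out of 18818 genes in all. The other 5 were not: Ccnb1 had no probe set named for it here, and the probe sets of Foxm1, Ube2c, Nusap1 and Kif20a carried several symbols.

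The mice were 6.5 weeks old, of background strain C57Bl/6J by the labels, and all 4 groups had eaten a high fat diet for 4 days. Wild type mice were compared with CD1d-/- mice, labelled B6.129S6-Cd1d1/Cd1d2tm1spb/J, which lack CD1d, the molecule that shows lipid antigens to natural killer T (NKT) cells and that these cells need in order to develop. On days 0 and 2 the mice received either α-galactosylceramide (αGalCer), a glycolipid that activates NKT cells through CD1d, at 100 ng per g of body weight, or pyridine as vehicle, by injection into the abdominal cavity, and fat was taken on day 4. There were 3 arrays for wild type after vehicle, 4 for wild type after αGalCer, 3 for knockout after vehicle and 3 for knockout after αGalCer. The deletion is in the germline, so no cell of the knockout carries CD1d. The labels number the arrays as replicates without saying that each is a separate mouse, so the p-values reflect the spread among these arrays, part of which may be technical.

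As background, a cell enters mitosis when cyclin-dependent kinase 1 (Cdk1), bound to a B-type cyclin, is switched on by the phosphatase Cdc25 and by Polo-like kinase 1. Kinetochores then assemble on centromeres and catch spindle microtubules, and the spindle checkpoint holds back the anaphase-promoting complex until every chromosome is attached. Most of these genes are transcribed in G2 and mitosis and are silent in resting cells. In cultured mammalian cells this timing depends on the MuvB core, which binds a promoter element called the cell cycle genes homology region (CHR), and on NF-Y, which binds the CCAAT box. Mature fat cells rarely divide, whereas immune cells and progenitors within fat can.

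The promoters of the genes hold both elements in most cases. RefSeq promoters of the mouse assembly GRCm38.p6, from 250 bases before to 50 bases after each gene start, were found for 38 of the 48 genes. There was no entry for Aurkb, Ccna2, Cdc25c, Foxm1, Incenp, Kif20a, Pbk, Smc4, Spc24 and Tpx2. The letters searched were TTTGAA or TTCGAA for the CHR and CCAAT for the CCAAT box, on both strands, each motif on its own, so neighbouring matches can share end letters. The CHR letters were in 30 of 38 genes (78.9%), the CCAAT letters in 29 (76.3%) and both in 26 (68.4%). Counted by promoter, they were in 32, 31 and 28 of 40 promoters, against 19.2%, 37.4% and 7.52% of all 32851 promoters of the table. A match is a description of letters and not a shown binding site.

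Shown first are the 5 genes with the largest change in wild type whose promoter holds both motifs, followed by Mad2l1, the gene with the smallest change whose promoter holds neither. Each is written 5′ to 3′ on the strand of the gene, and capitals mark the CHR and CCAAT letters, which appear as ATTGG or TTCAAA where they lie on the other strand. Bub1 is at chr2:127831810-127832109 (minus strand), Plk1 at chr7:122159185-122159484 (plus strand), Top2a at chr11:99024140-99024439 (minus strand), Hmmr at chr11:40733388-40733687 (minus strand), Aurka at chr2:172370521-172370820 (minus strand) and Mad2l1 at chr6:66534971-66535270 (plus strand).
Bub1: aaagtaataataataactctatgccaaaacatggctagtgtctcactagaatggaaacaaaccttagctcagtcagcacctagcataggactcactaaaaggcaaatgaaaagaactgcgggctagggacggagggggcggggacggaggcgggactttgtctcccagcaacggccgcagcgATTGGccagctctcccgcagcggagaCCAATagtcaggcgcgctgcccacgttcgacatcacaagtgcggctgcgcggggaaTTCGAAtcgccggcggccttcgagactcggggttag
Plk1: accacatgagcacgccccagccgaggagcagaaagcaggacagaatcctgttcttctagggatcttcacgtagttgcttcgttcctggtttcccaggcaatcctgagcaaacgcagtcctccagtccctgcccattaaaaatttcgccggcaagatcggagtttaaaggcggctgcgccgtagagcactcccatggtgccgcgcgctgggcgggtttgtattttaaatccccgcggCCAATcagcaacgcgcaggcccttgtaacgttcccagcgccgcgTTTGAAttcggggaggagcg
Top2a: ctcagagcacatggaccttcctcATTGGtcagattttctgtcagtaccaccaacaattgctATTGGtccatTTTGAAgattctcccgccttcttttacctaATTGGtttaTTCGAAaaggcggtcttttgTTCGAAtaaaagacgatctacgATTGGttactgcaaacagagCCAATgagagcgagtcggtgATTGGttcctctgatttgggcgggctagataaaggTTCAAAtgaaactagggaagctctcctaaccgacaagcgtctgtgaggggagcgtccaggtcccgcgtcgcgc
Hmmr: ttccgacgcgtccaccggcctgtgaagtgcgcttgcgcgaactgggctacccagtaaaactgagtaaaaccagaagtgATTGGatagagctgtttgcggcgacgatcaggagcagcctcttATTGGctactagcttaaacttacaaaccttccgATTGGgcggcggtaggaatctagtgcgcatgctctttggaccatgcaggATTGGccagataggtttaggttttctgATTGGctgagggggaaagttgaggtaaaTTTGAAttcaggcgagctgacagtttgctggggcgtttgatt
Aurka: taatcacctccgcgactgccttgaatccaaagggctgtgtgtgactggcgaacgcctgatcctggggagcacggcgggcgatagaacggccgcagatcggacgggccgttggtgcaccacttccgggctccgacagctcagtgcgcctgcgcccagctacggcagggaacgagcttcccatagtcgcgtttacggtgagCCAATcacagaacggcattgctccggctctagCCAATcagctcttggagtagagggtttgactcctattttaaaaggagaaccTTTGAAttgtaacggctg
Mad2l1: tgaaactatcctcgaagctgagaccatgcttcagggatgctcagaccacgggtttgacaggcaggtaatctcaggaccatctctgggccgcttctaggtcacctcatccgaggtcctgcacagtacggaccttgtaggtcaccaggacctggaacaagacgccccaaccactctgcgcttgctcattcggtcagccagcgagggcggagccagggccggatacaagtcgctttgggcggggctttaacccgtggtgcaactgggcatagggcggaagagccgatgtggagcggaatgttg

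In Bub1, Plk1, Hmmr and Aurka the CHR letters lie after the annotated start, beginning at base 15, 31, 9 and 33, and every CCAAT box lies before it. Top2a holds 4 CHR and 6 CCAAT matches, all before its start. Over all 40 promoters there were 45 CHR matches, with a median first base of -18, and 30 of them (66.7%) began within 50 bases of the start. In the whole table the median was -125 and the share 25.2%. The 71 CCAAT matches had a median of -68, against -92 in the table. Of these 95.8% lay upstream and 32.4% within 50 bases of the start, close to the 89.8% and 28.2% of all CCAAT matches in the table. The listed promoters of Ect2 overlap each other, as do those of Prc1, so matches they share were counted more than once.

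**Figure D1:**
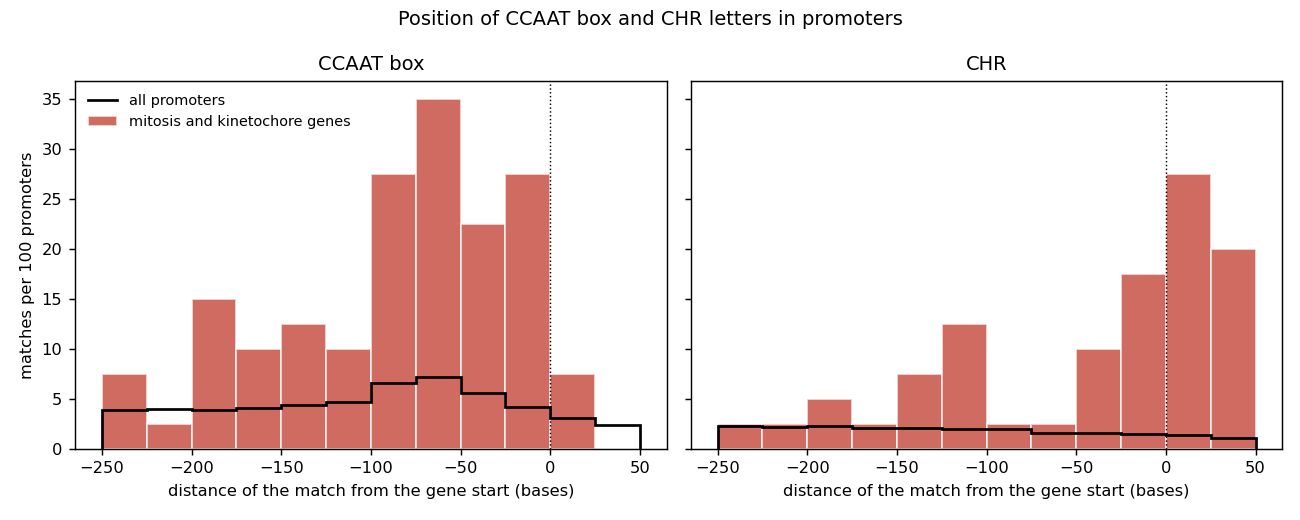
Position of CCAAT box letters (left) and CHR letters (right) in promoters, as matches per 100 promoters by distance from the gene start in bases. Filled bars are the 40 promoters of the mitosis and kinetochore genes and the black outline is all 32851 promoters; CHR matches of the mitosis genes gather around the start, where 66.7% of them lie within 50 bases.

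The change after αGalCer in wild type, given gene by gene further on, is described here by motif, with no test. The 25 measured genes with both motifs had a median log2 change of 2.24 (1.21 to 2.94), and the 4 with the CHR alone a median of 2.02 (1.76 to 2.59). Cenpe and Nek2, with the CCAAT box alone, had 2.57 and 1.83. The 4 with neither, namely Melk, Mad2l1, Nuf2 and Birc5, lay between 2.02 and 2.38. The 8 measured genes without an entry ran from 0.88 to 2.50.

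All levels are the log2 values that the authors deposited, so a difference of 1 is 2-fold. Array medians ran from 5.68 to 5.83 over all probe sets. The deleted gene Cd1d1 read 10.69 ± 0.15 (SD, n = 3) and 9.63 ± 0.40 (n = 4) in wild type after vehicle and αGalCer, and 3.73 ± 0.29 and 3.14 ± 0.47 (n = 3 each) in knockout. Defining genes of fat cells were high in every array: 11 adipocyte markers averaged 11.98 to 12.22 in both vehicle groups and in knockout after αGalCer, and 10.09 to 10.90 in wild type after αGalCer. Some arrays stood apart. Replicate 1 of wild type vehicle, of wild type αGalCer and of knockout vehicle averaged 8.49, 8.22 and 8.11 over 11 cohesin genes, which hold sister chromatids together, against 8.71 to 8.94 in the other 10 arrays. Skeletal muscle markers averaged 8.16 and 6.80 in replicates 1 and 2 of knockout vehicle and 8.43 in replicate 3 of knockout αGalCer, against 5.14 to 5.89 elsewhere.

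In wild type fat, 42 of the 43 measured genes rose after αGalCer and none fell. The median log2 change was 2.14, a 4.41-fold rise, and the changes ran from 0.88 for Smc4 to 2.94 for Bub1. In the same comparison 41.9% of all 18818 genes were called (19.8% higher, 22.0% lower), and the median change of all genes was -0.02. A rise of at least 2-fold was called for 41 of the 43, against 7.40% of all genes. A gene counts as called at a Benjamini-Hochberg adjusted p under 0.05 over all genes, from 1 limma model of all 13 arrays. For 42 of the 43 all 4 wild type αGalCer arrays read above the 9 other arrays of the study, which held for 16.0% of all genes. The exception to both was Smc4. These are bulk samples, so more cells in division and more of these transcripts per cell cannot be told apart.

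**Figure D2:**
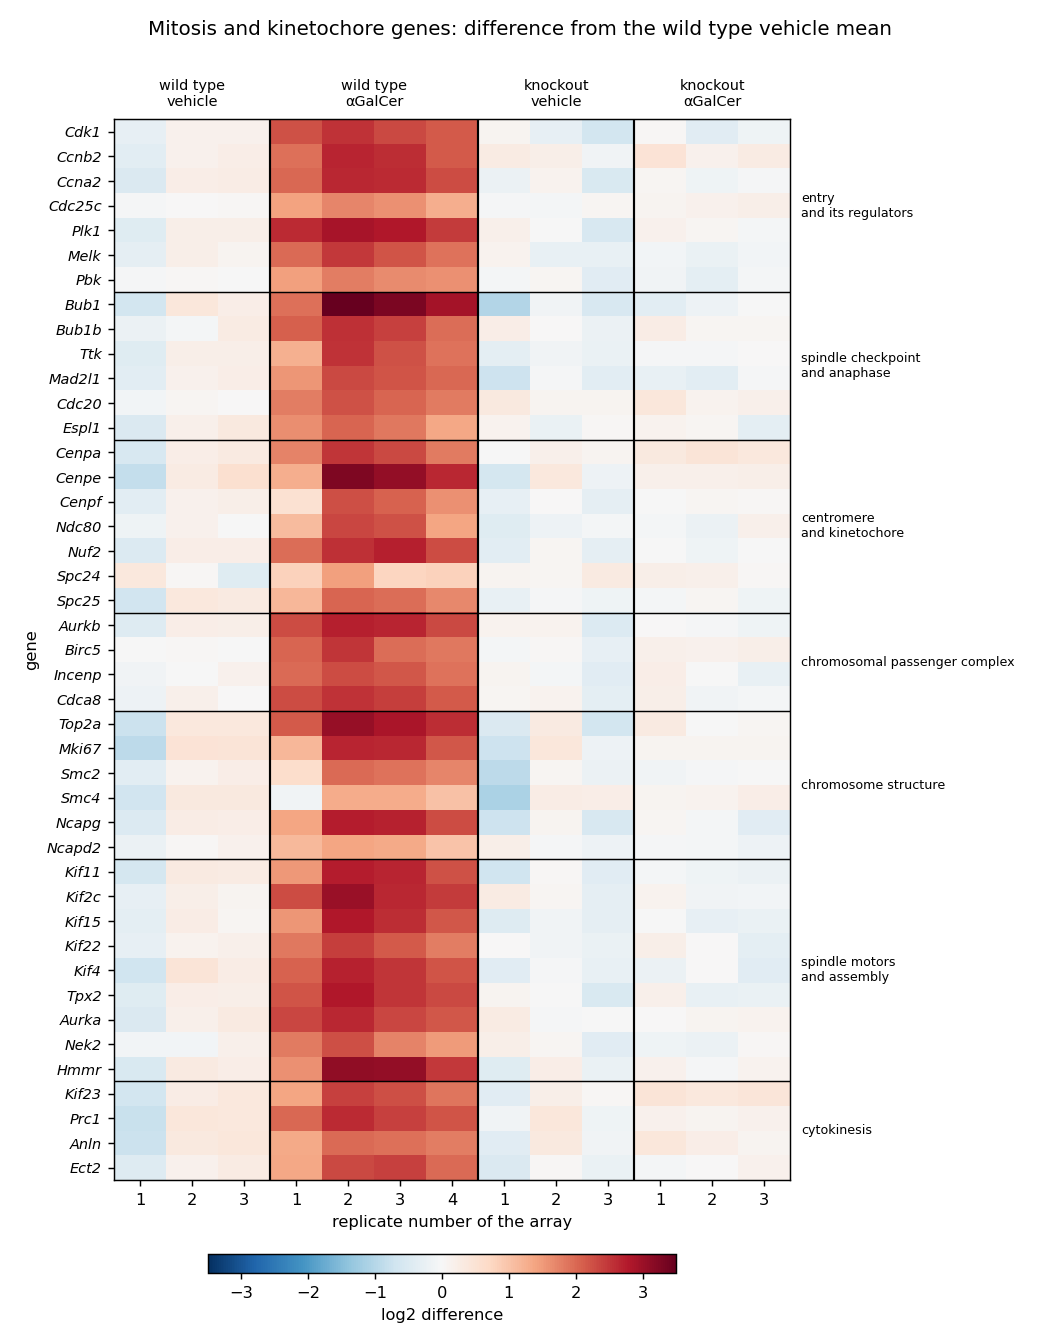
Each row is a gene, grouped by role, and each column an array; colour gives the log2 difference from the mean of the wild type vehicle arrays. The 4 wild type αGalCer columns are red in nearly every row, with replicate 2 the highest array for 41 of 43 genes, and the 6 knockout columns stay near the wild type vehicle level.

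Entry into mitosis was covered by 7 measured genes, and all 7 rose, with a median of 2.30. Cdk1, the kinase that drives entry, read 6.37, 6.80 and 6.80 in wild type after vehicle and 8.87, 9.18, 8.97 and 8.81 after αGalCer. In the knockout, Cdk1 read 6.76, 6.36 and 6.02 after vehicle and 6.70, 6.26 and 6.51 after αGalCer. The 4 wild type αGalCer arrays lay within a narrow band far above the rest. Its change was 2.30 ± 0.18 (± SE, n = 4 against 3), a 4.93-fold rise (limma adjusted p = 4.88e-07). Plk1, the Polo-like kinase that helps to switch Cdk1 on and later acts at kinetochores, had the largest change of these 7. It read 5.81, 6.45 and 6.45 after vehicle and 8.85, 9.12, 9.03 and 8.69 after αGalCer in wild type. In the knockout, Plk1 read 6.41, 6.21 and 5.66 after vehicle and 6.38, 6.30 and 6.16 after αGalCer. Groups did not overlap in wild type, and the change was 2.69 ± 0.20, or 6.46-fold (adjusted p = 3.32e-07). The smallest change of the 7 was that of Cdc25c, the phosphatase that removes inhibitory phosphates from Cdk1. Its wild type values were 3.90, 3.95 and 3.97 after vehicle and 5.34, 5.65, 5.53 and 5.21 after αGalCer, and its knockout values 3.90, 3.87 and 4.01 after vehicle and 4.02, 4.08 and 4.14 after αGalCer. The 9 arrays outside wild type αGalCer differed little from each other, from 3.87 to 4.14, and the change was 1.49 ± 0.10 (adjusted p = 2.31e-07). Such low log2 values are near the background of the arrays, where the RMA summary compresses changes. Of the other members of the group, cyclin A2 (Ccna2) rose by 2.39 ± 0.21, cyclin B2 (Ccnb2) by 2.34 ± 0.20, and the mitotic kinases Melk and Pbk by 2.14 ± 0.16 and 1.63 ± 0.12.

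All 6 measured genes of the spindle checkpoint and of anaphase rose, with a median of 2.00. Bub1, a checkpoint kinase at kinetochores, changed the most of all 43 genes. Wild type arrays read 4.88, 5.92 and 5.77 for Bub1 after vehicle and 7.44, 9.16, 8.82 and 8.43 after αGalCer. In the knockout, Bub1 read 4.49, 5.39 and 4.96 after vehicle and 5.16, 5.35 and 5.51 after αGalCer. Replicate 1 was the lowest array of both wild type groups, yet the groups stayed far apart. The change was 2.94 ± 0.37, a 7.69-fold rise (adjusted p = 2.51e-05). Espl1 is separase, the protease that cuts cohesin at the start of anaphase, and it had the smallest change of this group. In wild type it read 4.87, 5.53 and 5.69 after vehicle and 6.998, 7.39, 7.21 and 6.73 after αGalCer. In the knockout, Espl1 read 5.50, 5.12 and 5.39 after vehicle and 5.48, 5.43 and 5.01 after αGalCer. The change was 1.72 ± 0.21 (adjusted p = 2.23e-05), and no wild type αGalCer array reached down to the others. The checkpoint genes Bub1b, Ttk and Mad2l1 rose by 2.24 ± 0.17, 1.97 ± 0.25 and 2.02 ± 0.21, and Cdc20, the activator of the anaphase-promoting complex that the checkpoint restrains, by 1.97 ± 0.13.

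**Figure D3:**
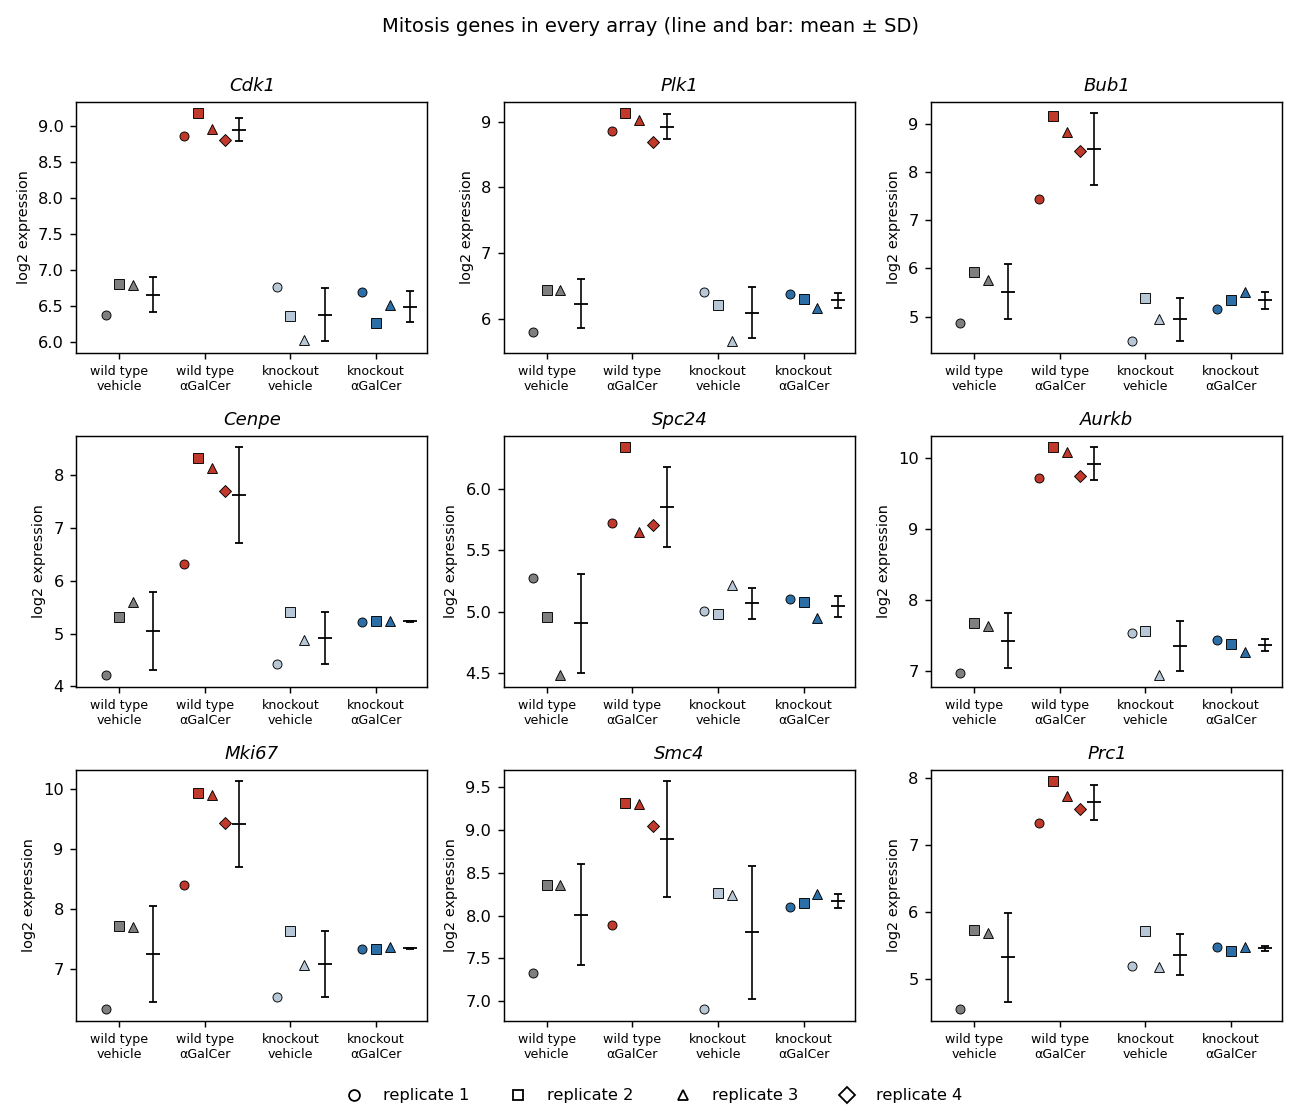
Log2 expression of 9 genes in every array, by group; marker shapes give the replicate number, and the line with its bar is the mean ± SD. Wild type αGalCer arrays lie above all others for each gene but Smc4, whose replicate 1 arrays read low in 3 of the 4 groups.

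At the centromere and kinetochore all 7 measured genes rose, with a median of 1.77. Cenpe, a kinesin motor that moves chromosomes to the spindle equator, had the largest change there. Its values were 4.21, 5.32 and 5.60 in wild type after vehicle and 6.32, 8.32, 8.13 and 7.69 after αGalCer. In the knockout, Cenpe read 4.43, 5.42 and 4.88 after vehicle and 5.22, 5.23 and 5.24 after αGalCer. The spread within groups was wide, since replicate 1 lay far below its group in 3 of the 4 groups, and the change was 2.57 ± 0.44 (adjusted p = 0.000347). Spc24, a subunit of the Ndc80 complex that binds microtubules, had the smallest change of the 7. Wild type arrays read 5.28, 4.95 and 4.48 for Spc24 after vehicle and 5.73, 6.34, 5.65 and 5.70 after αGalCer. In the knockout, Spc24 read 5.01, 4.98 and 5.21 after vehicle and 5.11, 5.08 and 4.95 after αGalCer. Replicate 2 was the highest by a wide gap, and the change was 0.95 ± 0.19 (adjusted p = 0.00131), below 2-fold. The other subunits of that complex rose too, Ndc80 by 1.77 ± 0.26, Nuf2 by 2.38 ± 0.21 and Spc25 by 1.72 ± 0.25. Cenpa, the histone that marks centromeres, rose by 2.09 ± 0.22 and Cenpf, a large kinetochore protein, by 1.61 ± 0.32.

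The chromosomal passenger complex corrects faulty attachments and then guides cytokinesis, and its 4 subunits rose by similar amounts, from 2.08 to 2.50. Aurkb, its kinase, read 6.98, 7.67 and 7.63 after vehicle and 9.71, 10.15, 10.08 and 9.74 after αGalCer in wild type. In the knockout, Aurkb read 7.54, 7.56 and 6.94 after vehicle and 7.43, 7.38 and 7.27 after αGalCer. The lowest wild type αGalCer array, 9.71, lay above the highest other array, 7.67, and the change was 2.50 ± 0.19, or 5.64-fold (adjusted p = 5.19e-07). Birc5, or survivin, had the smallest change of the 4. Its wild type values were 4.97, 5.02 and 4.96 after vehicle and 7.03, 7.48, 6.94 and 6.82 after αGalCer. In the knockout, Birc5 read 4.93, 5.01 and 4.69 after vehicle and 5.17, 5.15 and 5.19 after αGalCer. The 9 arrays outside wild type αGalCer lay between 4.69 and 5.19, and the change was 2.08 ± 0.14 (adjusted p = 2.19e-07). The scaffold Incenp and borealin (Cdca8) rose by 2.09 ± 0.15 and 2.35 ± 0.14.

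Of 6 genes for chromosome structure 5 rose, with a median of 1.85 over the 6. Top2a, the topoisomerase that untangles sister DNA, read 5.44, 6.58 and 6.57 after vehicle and 8.33, 9.23, 9.05 and 8.77 after αGalCer in wild type. In the knockout, Top2a read 5.69, 6.50 and 5.55 after vehicle and 6.50, 6.19 and 6.26 after αGalCer. All 4 wild type αGalCer arrays were above the others, and the change was 2.65 ± 0.31 or 6.27-fold (adjusted p = 1.31e-05). Its other 2 probe sets were dim, at 2.70 and 2.78 in wild type after vehicle, and had changes of 0.02 and 0.17. With the mean of the 3 probe sets in place of the brightest, the change of Top2a was 0.94. Mki67 encodes Ki-67, which coats mitotic chromosomes and is widely stained as a sign of cell division. Wild type arrays read 6.34, 7.72 and 7.71 for Mki67 after vehicle and 8.40, 9.92, 9.89 and 9.43 after αGalCer. In the knockout, Mki67 read 6.54, 7.64 and 7.08 after vehicle and 7.34, 7.34 and 7.36 after αGalCer. Replicate 1 lay well below the rest in both wild type groups and in knockout vehicle, and the change was 2.16 ± 0.40 (adjusted p = 0.0007).

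Condensins compact chromosomes, and the condensin subunits gave both small and large values. Smc4 was the only member not called. Wild type arrays read 7.33, 8.36 and 8.35 for Smc4 after vehicle and 7.89, 9.32, 9.30 and 9.05 after αGalCer. In the knockout, Smc4 read 6.91, 8.27 and 8.24 after vehicle and 8.11, 8.15 and 8.26 after αGalCer. Replicate 1 of wild type αGalCer fell inside the range of the vehicle arrays. The difference was 0.88 ± 0.40 (unadjusted 95% interval 0.02 to 1.74, adjusted p = 0.0982). It was called without that array (1.21, adjusted p = 0.0138) and without replicate 1 of knockout vehicle (adjusted p = 0.0447), and was 0.54 without replicate 1 of wild type vehicle. Its partner Smc2 rose by 1.55 ± 0.31, Ncapg by 2.28 ± 0.32 and Ncapd2 by 1.21 ± 0.13.

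The 9 measured spindle motors and assembly factors all rose, with the highest median of the 7 role groups (2.37). Kif2c, a kinesin that takes microtubules apart at centromeres, read 4.76, 5.27 and 5.14 after vehicle and 7.34, 8.07, 7.69 and 7.50 after αGalCer in wild type. In the knockout, Kif2c read 5.34, 5.14 and 4.74 after vehicle and 5.18, 4.94 and 4.96 after αGalCer. Vehicle and knockout arrays shared 1 range, and the change in wild type was 2.59 ± 0.19, a 6.03-fold rise (adjusted p = 3.68e-07). Nek2, a kinase that separates centrosomes, had the smallest change of the 9. It read 5.13, 5.12 and 5.39 in wild type after vehicle and 7.03, 7.47, 6.96 and 6.71 after αGalCer. In the knockout, Nek2 read 5.43, 5.28 and 4.83 after vehicle and 5.08, 5.02 and 5.24 after αGalCer. Its groups also did not overlap in wild type, with a change of 1.83 ± 0.18 (adjusted p = 3.33e-06). Aurora kinase A (Aurka) and its activator Tpx2 rose by 2.37 ± 0.18 and 2.45 ± 0.21, and Hmmr, a spindle protein, by 2.56 ± 0.33. The kinesins Kif11, which pushes spindle poles apart, and Kif15 rose by 2.30 ± 0.30 and 2.28 ± 0.25, and the chromosome-bound kinesins Kif4 and Kif22 by 2.37 ± 0.24 and 2.06 ± 0.18. A second probe set of Kif11 had a change of 1.25, one of Mad2l1 1.75 and one of Pbk 0.77, each below that of the brighter probe set used.

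All 4 measured genes of cytokinesis rose, with a median of 1.99. Prc1, which bundles the microtubules of the central spindle, read 4.55, 5.73 and 5.69 in wild type after vehicle and 7.33, 7.95, 7.73 and 7.53 after αGalCer. In the knockout, Prc1 read 5.19, 5.72 and 5.19 after vehicle and 5.48, 5.42 and 5.47 after αGalCer. Replicate 1 of wild type vehicle was the lowest of all 13 arrays, and the change was 2.31 ± 0.26 (adjusted p = 9.46e-06). A second, dim probe set of Prc1 had a change of 0.05, and the mean of both gave 1.18. Anln encodes anillin, a scaffold of the contractile ring. Wild type arrays read 6.38, 7.44 and 7.53 for Anln after vehicle and 8.43, 9.10, 9.05 and 8.91 after αGalCer. In the knockout, Anln read 6.72, 7.45 and 6.99 after vehicle and 7.53, 7.36 and 7.21 after αGalCer. The αGalCer arrays of wild type were the 4 highest, with a change of 1.76 ± 0.27 (adjusted p = 0.000126). The motor Kif23 and the cytokinesis factor Ect2 rose by 1.98 ± 0.26 and 2.01 ± 0.24.

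Markers of immune cells rose in the same wild type arrays. Called higher were 10 of 10 T cell genes, 10 of 10 natural killer and cytotoxic cell genes, 10 of 11 macrophage genes, 5 of 5 neutrophil genes and 1 of 5 B cell genes, against 19.8% of all genes, so the B cell count is near the background. T cell markers averaged 5.05 to 5.13 in wild type after vehicle and 7.004 to 7.41 after αGalCer, against 5.07 to 5.46 in the knockout. Cytotoxic cell markers averaged 4.98 to 5.47 and 8.11 to 9.05 in wild type, and 5.10 to 5.94 in knockout. Macrophage markers averaged 8.89 to 9.58 and 10.82 to 10.96 in wild type, and 9.35 to 9.94 in knockout. Neutrophil markers averaged 4.62 to 5.44 and 6.36 to 8.17 in wild type, and 4.93 to 5.41 in knockout. All 11 adipocyte and all 8 endothelial genes fell, and 7 of 8 fibroblast genes, against 22.0% of all genes. Of 8 genes of testis and epididymis, which lie next to this fat pad, Ddx4 was called higher and Sycp3 and Lcn8 lower, near the 41.9% of all genes called either way, and the list averaged 4.17 to 4.54 over all arrays. Of 5 lymph node genes 2 were called higher, against 19.8% of all genes. The larger change was that of Cd22, a B cell gene outside the B cell list (1.665). The part of any of these cell types in the rise of the mitosis genes was not tested.

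**Figure D4:**
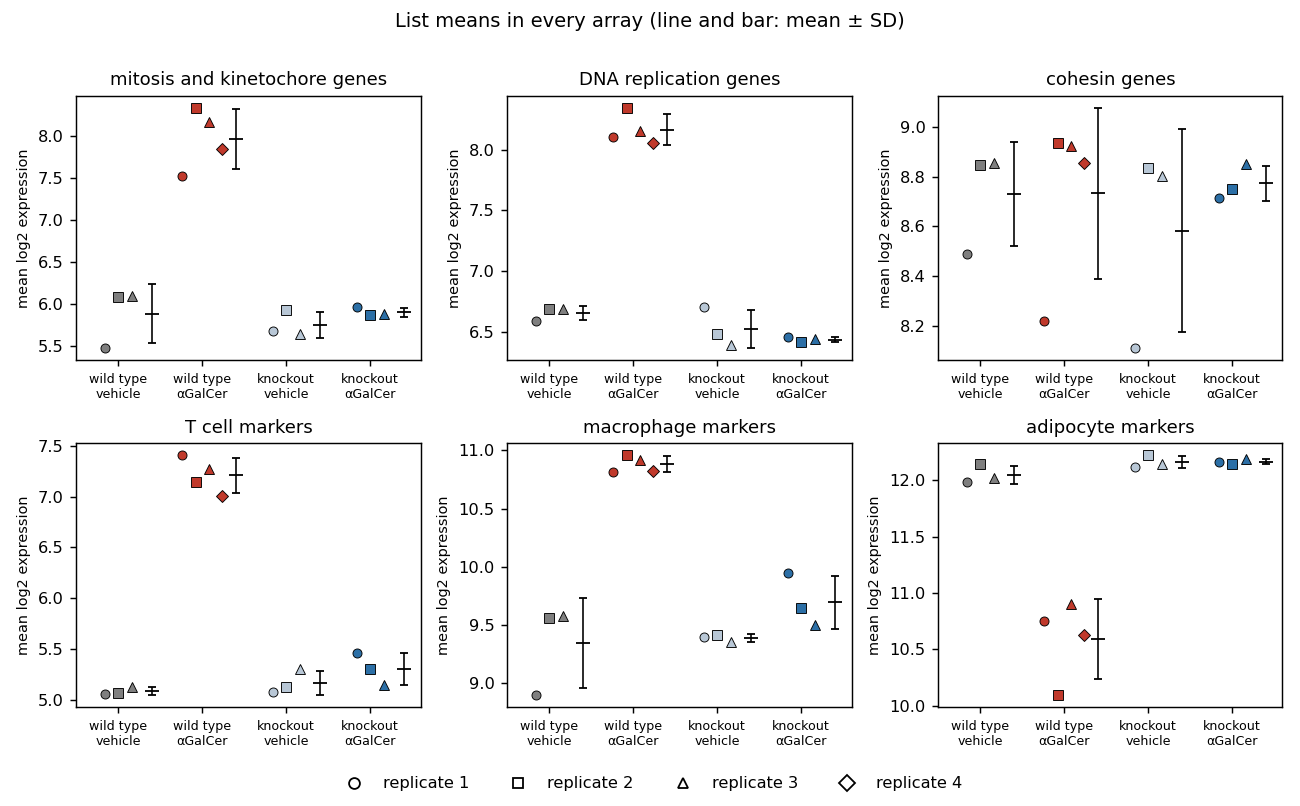
Mean log2 expression per array of 6 gene lists, by group; shapes give the replicate number, and the line with its bar is the mean ± SD. Mitosis, DNA replication, T cell and macrophage genes are higher in wild type after αGalCer than in the other groups, adipocyte markers lower, and cohesin genes at one level apart from 3 low replicate 1 arrays.

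In the knockout, none of the 43 genes was called after αGalCer by the same limma test. No gene of all 18818 was called (0%), and 1281 had an unadjusted p under 0.05, none of them a member. The median change of the 43 was 0.16, with 36 values above 0 and 7 below, from -0.09 for Ncapd2 to 0.46 for Kif23. Of all 18818 genes, 10189 had a change above 0. Knockout groups did not overlap, with αGalCer higher, for 5 of 43 genes, against 7.79% of all genes. The 95% interval of the change lay inside -1 to 1 for 37 of the 43, so a 2-fold change in either direction was outside the interval for these. The widest interval was that of Cenpe, from -0.70 to 1.34. For Bub1 the change was 0.40 ± 0.39, for Plk1 0.19 ± 0.21, for Mki67 0.26 ± 0.43 and for Kif2c -0.05 ± 0.20.

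**Figure D5:**
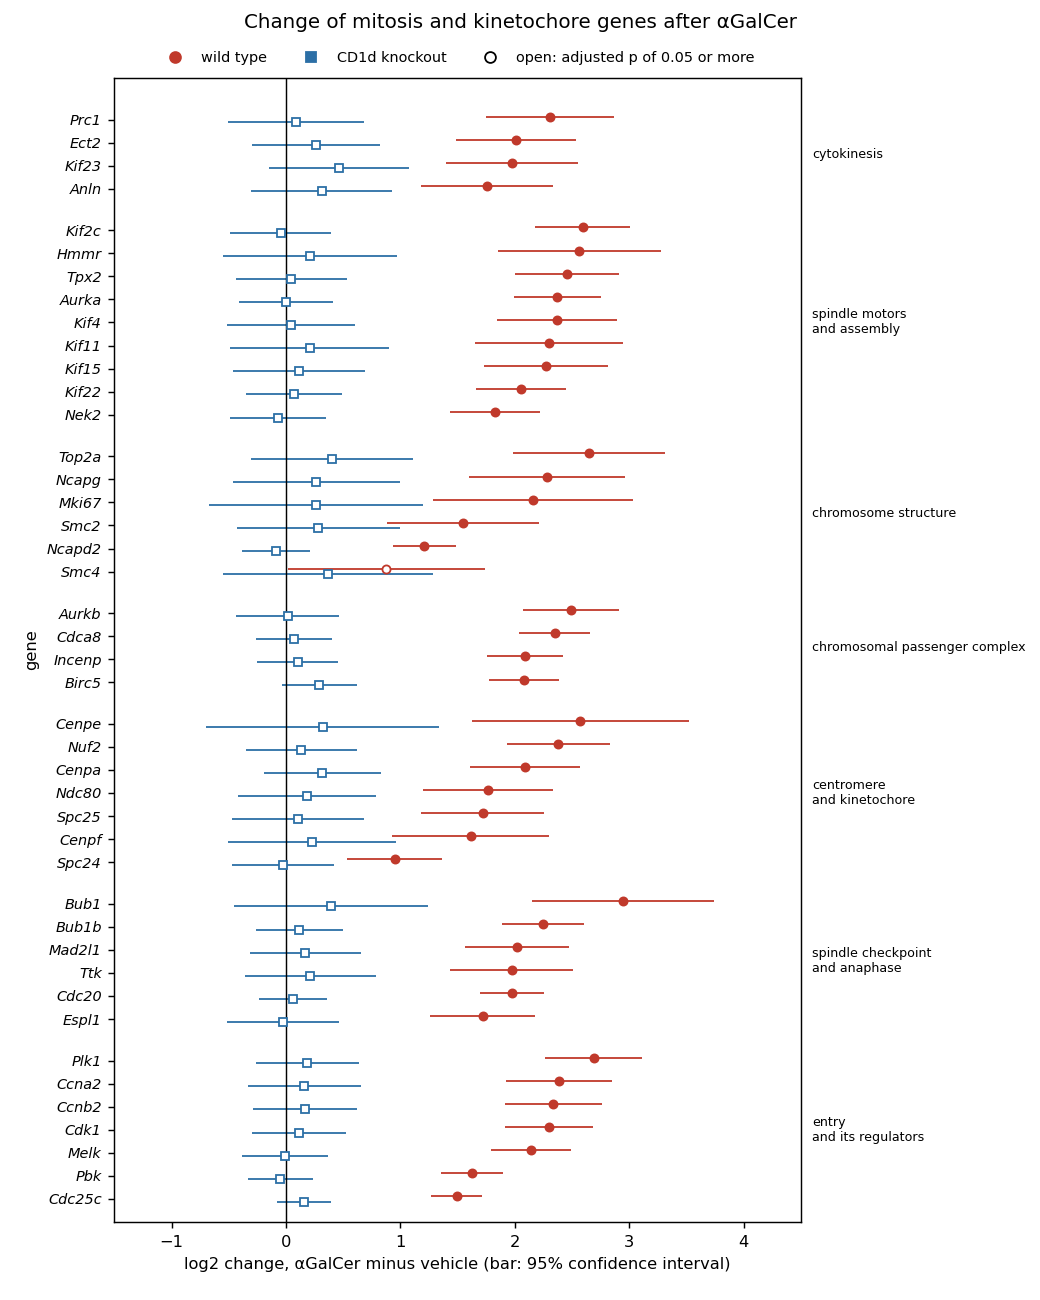
Log2 change after αGalCer (horizontal axis) of the 43 genes in wild type (circles) and CD1d knockout (squares), with bars for the 95% confidence interval and open symbols for changes not called. Wild type changes run from 0.88 to 2.94 and knockout changes from -0.09 to 0.46.

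Whether the response differed between genotypes was tested as the difference of the 2 changes. It was called for 41 of the 43 genes, each larger in wild type, with a median difference of 1.99 on the log2 scale. Over all genes 28.2% were called, and 13.9% in this direction. The difference was largest for Kif2c (2.64 ± 0.28, adjusted p = 2.82e-05), followed by Bub1 (2.55 ± 0.54, adjusted p = 0.00296) and Plk1 (2.50 ± 0.29, adjusted p = 4.4e-05). Both uncalled genes were core condensin subunits. For Smc2 the difference was 1.26 ± 0.45 (adjusted p = 0.0533) and for Smc4 0.51 ± 0.58 (adjusted p = 0.604). The Smc2 difference was called without replicate 1 of wild type αGalCer (1.57, adjusted p = 0.00237) and without replicate 1 of knockout vehicle (1.54, adjusted p = 0.0172). Cenpf (1.39 ± 0.46, adjusted p = 0.0404) and Mki67 (1.90 ± 0.59, adjusted p = 0.0285) were the called genes closest to the threshold. Leaving out 1 array ended the call of Cenpf for 11 of the 13 arrays, and that of Mki67 for 8 of 13.

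After vehicle alone, none of the 43 genes was called between knockout and wild type fat, where 0.112% of all genes were called. The median of knockout minus wild type was -0.13, and 35 of 43 values were below 0, from -0.57 for Bub1 to 0.17 for Cdc20. Over all 18818 genes, 8347 values were below 0. The knockout vehicle arrays enter this comparison and the one within knockout with opposite sign, so the sign counts of the 43 genes are not separate evidence. No member had an unadjusted p under 0.05, and the 95% interval lay within -1 to 1 for 36 genes. Bub1 had the lowest bound, at -1.42. After αGalCer, 42 of 43 genes were lower in knockout than in wild type, with a median of -2.10, against 19.2% of all genes lower and 41.1% called either way. This comparison shares its wild type αGalCer arrays with the comparison within wild type, and the difference of responses uses all the arrays, so the counts are not separate evidence. Bub1 differed the most (-3.12 ± 0.37) and Smc4 was again not called (-0.72 ± 0.40, adjusted p = 0.177), though without replicate 1 of wild type αGalCer it was called (-1.05, adjusted p = 0.0281).

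The 43 genes varied more between replicates than most genes did. The median SD of a member was 0.37 in wild type after vehicle, 0.32 in wild type after αGalCer and 0.25 in knockout after vehicle, against 0.13, 0.13 and 0.16 over all genes. In knockout after αGalCer both medians rounded to 0.10. Averaged over the 43 genes, the arrays read 5.48, 6.09 and 6.09 in wild type after vehicle, and 7.53, 8.34, 8.17 and 7.84 after αGalCer. The knockout arrays averaged 5.68, 5.94 and 5.64 after vehicle and 5.97, 5.87 and 5.88 after αGalCer. Replicate 2 of wild type αGalCer was the highest array for 41 of the 43 genes. The same array had the lowest cytotoxic marker mean of its group, 8.11, and the lowest adipocyte marker mean, 10.09, and whether these are linked was not tested. Replicate 1 of wild type vehicle was the lowest array of its group for 40 of them.

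The replicate 1 arrays that read low for cohesin also read low for a recurring set of mitosis genes. Bub1, Mad2l1, Cenpe, Mki67, Smc2, Smc4, Kif11 and Kif23 lay at least 0.5 below the mean of the other arrays of their group in all 3 of these arrays. That is 8 of 43 members (18.6%), against 347 of all genes (1.84%). For Smc4 the gaps were -1.02 in wild type vehicle, -1.33 in wild type αGalCer and -1.34 in knockout vehicle, and for Mki67 they were -1.38, -1.35 and -0.82. Cdk1 did not share the pattern, with -0.42, -0.11 and 0.57, nor did Birc5, with -0.02, -0.04 and 0.08. Without these 3 arrays, a choice made after seeing the data, all 43 genes were called higher in wild type after αGalCer, with a median of 2.04. Smc4 then had a change of 0.87 (limma adjusted p = 2.57e-05), against 0.88 with all arrays. Its difference between genotypes was 0.95 (adjusted p = 0.000333), and that of Smc2 was 1.67 (adjusted p = 4.97e-05). Leaving out arrays picked for their low values narrows the spread within groups and leaves smaller groups. These calls and p-values are therefore no added support for a rise of Smc4 or Smc2. What set these arrays apart was not tested.

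Further genes of the cycle were listed by function. None of them was called after αGalCer in the knockout, where 0% of all 18818 genes were called, so this is no result about these lists. Of 50 measured genes with other mitotic roles 48 rose in wild type, against 19.8% of all genes called higher. Their median was 1.88, and the largest rise was that of Cep55 of the final cut between daughter cells (2.68 ± 0.23). Pttg1, or securin, which restrains separase, was the one that fell (-0.35 ± 0.12), and Ncapd3 of condensin II was not called (0.20 ± 0.13, adjusted p = 0.239). The anaphase-promoting complex was covered by 14 genes, with its activator Fzr1 among them. Of these 14 genes 3 rose and 3 fell, close to the 41.9% of all genes called in this comparison. Their median was -0.05, and the values ran from Anapc16 (-0.78 ± 0.11) to Anapc15 (0.65 ± 0.08). Of 11 cohesin subunits and regulators none was called, with a median of 0.01. The smallest p was that of Smc1a (0.18 ± 0.17, adjusted p = 0.447). The median SE of these 11 genes was 0.21, against 0.12 over all genes, so small changes could go uncalled. A further list held Ncaph2 of condensin II and further kinetochore or checkpoint proteins. They were grouped when listed as less tied to the cycle, which was not tested. All 13 measured genes of this list rose, against 19.8% of all genes called higher. Their median was 0.76, and the values ran from Ncaph2 (0.28 ± 0.10) to the checkpoint protein Kntc1 (1.85 ± 0.15).

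Over all genes 19.8% rose and 22.0% fell in this comparison, and short lists of genes that act before mitosis also held changes both ways. Of 9 cyclins and kinases of G1 phase 4 rose, led by Cdk6 (1.24 ± 0.12), and cyclin D2 (Ccnd2) fell (-0.37 ± 0.08). Of 7 inhibitors of cyclin-dependent kinases 2 rose and 2 fell, with p21 (Cdkn1a) at 1.53 ± 0.20 and p18 (Cdkn2c) at -1.40 ± 0.15. Among 22 factors of the DREAM, MuvB and E2F groups, which repress or activate cell cycle promoters, 13 rose and 3 fell, from the E2F partner Tfdp2 (-1.17 ± 0.13) to the E2F repressor E2f8 (2.25 ± 0.14). With so few genes, the counts for the G1 cyclins and kinases and for the inhibitors are not read as a result about these lists. DNA replication genes were called higher in 29 of 32 cases, none lower, with a median of 1.54, led by the ribonucleotide reductase subunit Rrm2 (2.63 ± 0.15). Promoter counts of these lists take every listed gene with an entry, measured or not. Promoters of DNA replication genes held the CHR letters in 6 of 30 genes, against 19.0% of all measured genes with an entry. The other mitotic genes held them in 30 of 45 (66.7%), the anaphase-promoting complex in 2 of 14 (14.3%) and the G1 cyclins and kinases in 0 of 6. They were in 7 of 18 DREAM, MuvB and E2F factors and 5 of 13 genes of the list with Ncaph2. Cohesin genes held them in 2 of 7 and the inhibitors in 1 of 6. The CCAAT shares of these lists ran from 33.3% for G1 cyclins and kinases to 66.7% for other mitotic genes and inhibitors, against 41.9% of all measured genes.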

How the data were processed

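RNA was measured in 13 fat samples on Affymetrix arrays, from 100 ng of total RNA each with an integrity number above 8.0, per the labels' protocols. The authors deposited 1 log2 value per probe set and array, made with RMA per the submitters' processing notes. RMA corrects background, quantile normalises and summarises probes, and it compresses changes of dim probe sets. The sources used here give neither its version nor the build. Values ran from 1.53 to 13.84, no detection calls were used, and the number of arrays limits the precision.

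The platform annotation named the probe sets, with symbols updated through the RefSeq table of GRCm38.p6, used for names, chromosomes and promoters. Of 35556 probe sets 21218 had 1 symbol, 1881 several and 12457 none. Of the named ones 21185 matched by Entrez identifier and 3 by accession, and 30 kept their symbol. For 1388 genes with several probe sets the one with the highest mean was used, which left 18818 genes, tested with no filter on dim genes.

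A single limma model (3.58.1, in R 4.3.3) of the 4 group means, with 9 residual degrees of freedom, eBayes with an intensity trend, two-sided tests and Benjamini-Hochberg adjustment over all genes gave 5 contrasts. The threshold for a call was an adjusted p under 0.05. ± after a change is the SE of the model, and 95% intervals are unadjusted. The fit was tested on simulated data with independent arrays and genes, so that test does not cover deviations shared between arrays or members. Members, roles and gene lists were chosen with earlier results of these data known. Values in every array are given for Cdk1, Mki67, Top2a and, in each of 7 role groups, the members with the largest and the smallest change in wild type; of each further list the largest called rise and fall are named, or the smallest p where none was called. Alternatives, 24 in all, changed the dim filter, normalisation, array weights, variance model, probe set rule, arrays used and replicate block.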

Additional observations from a re-analysis of the deposited data

Results flagged for a closer look

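The change after αGalCer differed between the genotypes for 41 of the 43 genes, by the test of the difference itself in limma (adjusted p under 0.05), against 13.9% of all genes in this direction. Each value is the log2 change in wild type minus the log2 change in knockout. Among genes of entry into mitosis the difference was 2.50 for Plk1, 2.22 for Ccna2, 2.19 for Cdk1, 2.17 for Ccnb2, 2.15 for Melk, 1.68 for Pbk and 1.33 for Cdc25c. For the spindle checkpoint and anaphase it was 2.55 for Bub1, 2.13 for Bub1b, 1.91 for Cdc20, 1.85 for Mad2l1, 1.76 for Ttk and 1.75 for Espl1. At the centromere and kinetochore it came to 2.25 for Cenpe, 2.25 for Nuf2, 1.77 for Cenpa, 1.61 for Spc25, 1.58 for Ndc80, 1.39 for Cenpf and 0.97 for Spc24. Passenger complex genes differed by 2.48 for Aurkb, 2.28 for Cdca8, 1.98 for Incenp and 1.79 for Birc5. In chromosome structure it was 2.25 for Top2a, 2.01 for Ncapg, 1.90 for Mki67 and 1.30 for Ncapd2. Spindle motors and assembly factors had differences of 2.64 for Kif2c, 2.41 for Tpx2, 2.37 for Aurka, 2.35 for Hmmr, 2.32 for Kif4, 2.16 for Kif15, 2.09 for Kif11, 1.99 for Kif22 and 1.90 for Nek2. Cytokinesis genes had 2.22 for Prc1, 1.75 for Ect2, 1.51 for Kif23 and 1.45 for Anln.

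Of the 43 genes, 1 had an array far from the other 3 of wild type αGalCer: Spc24 read 6.34 in replicate 2, above 5.73, 5.70 and 5.65 in the others. The gap to the nearest, as a share of the range, passed Dixon's 95% critical value for 4 samples. Chance flags about 1 in 20 such groups, and groups of 3 arrays were not examined this way. Replicate 2 was also the highest array of its group for most of the other members.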

How the results depend on the processing

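The counts of called members kept their direction in all 24 alternatives (23 for the difference between genotypes). They were 41 to 43 higher in wild type, 0 in knockout, 39 to 43 for the difference and 0 after vehicle. Between genotypes after αGalCer, 41 to 43 were lower in knockout than in wild type. The median change of the members in wild type ran from 1.99 to 2.25. Of 215 results of single members 6 changed side of the threshold under some alternative, for Smc4, Smc2, Cenpf and Mki67. For Smc4 the adjusted p in wild type ran from 2.57e-05 to 0.3603, and for the difference the adjusted p of Smc2 ran from 4.97e-05 to 0.129, of Cenpf from 0.000433 to 0.0963 and of Mki67 from 0.000193 to 0.0745. The lowest values of Smc4 and Smc2 came from leaving out the 3 replicate 1 arrays, a choice made after seeing the data. Values in knockout and after vehicle that were not called changed sign in 130 of 2062 cases. With the mean of all probe sets of a gene, Top2a and Prc1 were called at 0.94 and 1.18 in wild type. A dim-gene filter left out Cdc25c and kept 42 members. Over all genes, requiring a 1.5-fold change gave 2356 higher and 2663 lower after αGalCer in wild type. For knockout against wild type after αGalCer it gave 2608 higher and 2280 lower. Array weights gave 175 higher and 147 lower after αGalCer in knockout, where 0 were called without them. For knockout against wild type after vehicle they gave 109 higher and 60 lower, where 17 and 4 were called. There, a fit of only the groups compared gave 2 and 2, leaving out the 3 replicate 1 arrays gave 7 lower, and leaving out single arrays gave 8 to 23 higher and 2 to 12 lower. For αGalCer against vehicle in knockout, leaving out single arrays gave 0 to 2 lower, and the 2 came without replicate 3 of knockout vehicle. The causes were not tested. Over all genes, deviations of same-numbered arrays from their group means correlated with r from -0.20 to 0.48 in 18 pairs, median 0.02, and of differently numbered arrays from -0.57 to 0.46, so the numbers were not taken to pair the samples. The replicate 1 arrays of both wild type groups and of knockout vehicle did deviate together, with r of 0.298, 0.481 and 0.383 over all genes and 0.557, 0.537 and 0.821 over the members. With the replicate block 3707 genes were called higher and 4059 lower in wild type, 43 members among the higher with a median of 2.18, and 42 members differed between genotypes. The block brought Smc4 past the threshold in wild type (0.82, adjusted p = 0.0179) and in knockout against wild type after αGalCer (-0.67, adjusted p = 0.0460), and Smc2 for the difference (1.21, adjusted p = 0.0129), and changed no other call of a member. Dim probe sets near background limit what can be seen for genes such as Cdc25c.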
